A study of Mus musculus with 6 samples.

Results

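The genes described here are 41 mouse genes that copy DNA or supply the deoxynucleotides it is built from: factors that license origins, the replicative helicase, the origin recognition complex, the DNA polymerases, the sliding clamp and its loader, enzymes of nucleotide supply, and Uhrf1. They were chosen by name, as the count rows whose symbol equals a listed gene. Each of the 41 was found among the 55377 genes listed, and each was among the 14683 genes with enough counts to be tested. The cells were primary cultures of mouse articular chondrocytes, the cells that make and keep joint cartilage. Cells were transfected either with an siRNA against Irf1, which encodes the transcription factor interferon regulatory factor 1, or with a control siRNA, so both groups went through a transfection. RNA was taken 36 h after transfection, and each group had 3 libraries made with a stranded kit for polyadenylated RNA. Strain and age are not given in the labels used here, nor whether replicates were separate cultures or animals. The p-values therefore measure only the spread between these libraries, which may be technical.

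Replication begins at origins bound by the origin recognition complex (ORC). In the G1 phase Cdc6 and Cdt1 load rings of the MCM proteins there, and in S phase Cdc45 and the GINS complex join each ring to form the active CMG helicase. Primase and polymerase alpha start each strand, polymerases delta and epsilon extend it while held by the PCNA clamp, and replication factor C loads that clamp. Ribonucleotide reductase makes the deoxynucleotides, and many of these genes are transcribed by E2F factors as cells enter S phase. Chondrocytes in adult cartilage seldom divide, while chondrocytes put into culture do.

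With Irf1 siRNA 6 of the 41 genes were lower and 0 were higher: Rrm2 and Rrm1 of ribonucleotide reductase, Gins2 of the helicase, Pold1 and Prim2 of the polymerases, and Cdc6 of origin licensing. Gins2 was 1.56-fold lower and Rrm2 1.38-fold lower, and the other 4 were lower by 1.27-fold or less. The MCM2 to MCM7 ring, ORC, the clamp and the clamp loader had no gene past the threshold. A gene counts as changed here at an adjusted p below 0.05 in edgeR's quasi-likelihood test with Benjamini-Hochberg adjustment over all tested genes. Every adjusted p below is from that test unless another is named.

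Promoter sequences of 4 genes are shown to set genes that fell beside one that did not pass the test. They are from RefSeq (build GRCm38.p6, which is not the build of the counts) and run 5′ to 3′ on the gene's strand, with 250 bases before the gene's start and 50 after it. Capitals mark any match, on either strand, to 4 E2F-type words: TTTCCCGC, TTTCGCGC, TTTGCCGC and TTTGGCGC. Overlapping matches are drawn as 1 stretch. Cdc6 (chr11:98907901-98908200, plus strand) and Pold1 (chr7:44548766-44549065, minus strand) fell and hold a match each. Mcm6 (chr1:128359656-128359955, minus strand), which holds 2 stretches, did not pass the test. Rrm2 (chr12:24708004-24708303, plus strand) fell and holds none of the 4 words in this window.
Cdc6: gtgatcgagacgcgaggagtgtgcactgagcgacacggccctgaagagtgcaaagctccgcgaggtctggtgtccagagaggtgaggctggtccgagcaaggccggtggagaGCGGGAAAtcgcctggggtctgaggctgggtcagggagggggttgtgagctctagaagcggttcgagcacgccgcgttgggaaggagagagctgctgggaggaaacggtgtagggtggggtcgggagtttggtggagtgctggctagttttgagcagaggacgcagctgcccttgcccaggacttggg
Pold1: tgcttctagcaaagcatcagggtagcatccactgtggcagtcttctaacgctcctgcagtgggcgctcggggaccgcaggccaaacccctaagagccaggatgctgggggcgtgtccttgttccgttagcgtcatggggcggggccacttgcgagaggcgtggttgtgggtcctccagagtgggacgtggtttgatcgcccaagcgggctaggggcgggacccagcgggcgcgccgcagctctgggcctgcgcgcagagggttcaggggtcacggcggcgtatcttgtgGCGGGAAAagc
Mcm6: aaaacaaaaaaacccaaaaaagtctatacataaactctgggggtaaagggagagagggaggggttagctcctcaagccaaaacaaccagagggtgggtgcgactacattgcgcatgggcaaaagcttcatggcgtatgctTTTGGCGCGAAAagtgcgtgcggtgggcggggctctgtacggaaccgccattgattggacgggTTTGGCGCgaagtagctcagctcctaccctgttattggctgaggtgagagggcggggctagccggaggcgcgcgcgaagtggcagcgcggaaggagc
Rrm2: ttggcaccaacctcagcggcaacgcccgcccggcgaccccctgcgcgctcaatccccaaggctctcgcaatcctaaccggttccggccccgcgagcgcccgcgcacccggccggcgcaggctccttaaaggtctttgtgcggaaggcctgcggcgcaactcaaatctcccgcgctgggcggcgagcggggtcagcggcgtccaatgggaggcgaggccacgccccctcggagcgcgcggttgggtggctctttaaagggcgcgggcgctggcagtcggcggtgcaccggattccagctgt

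Promoter windows matched 33 of the 41 genes; Gmnn, Mcm4, Gins1, Gins2, Gins4, Prim2, Pole and Rfc2 had no entry. An E2F-type word was found in 15 of these 33 genes (45.5%), against 704 of all 27025 genes with a window (2.60%). The word CCAAT, searched on both strands, was in 21 of the 33 (63.6%), against 41.1% of all genes. Among the 4 genes that fell and had a window, 2 held an E2F-type word, and among the 29 that did not pass the test 13 did. Over all 33 genes with a window, called or not, the median log2 fold change was -0.12 with a word and -0.081 without. A match to these letters describes the window and shows no binding.

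Short sites in the 3′ untranslated region (3′ UTR) are shown for Rrm2 and Gins2, which had the largest falls, and for Uhrf1, Tyms and Orc4, which did not pass the test. An earlier analysis of these same libraries picked 4 words of 7 bases, ACTGATC with its shifted form CTGATCA and GCTATCT with its shifted form CTATCTA, because they went with lower expression, so their presence is a description only. Sites were read from GENCODE M21 transcripts by gene identifier, on the strand of the transcript, and capitals mark the word.
Rrm2, base 4 of the 3′ UTR: gtaACTGATCgtgtgttctt
Rrm2, base 754: tgacataaccCTGATCAgtttccttga
Gins2, base 2481: cagtgggtagGCTATCTgtggacagct
Uhrf1, base 384: cttcctggcaGCTATCTgtgtgcttca
Tyms, base 1081: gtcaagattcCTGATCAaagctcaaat
Orc4, base 1451: actagcccaaGCTATCTcaactacagg
Orc4, base 1981: gaaatacagtCTGATCAagcaacggtg

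A word was present in 2 of the 6 replication genes that fell (33.3%) and in 3 of the 35 that did not pass the test (8.57%). Over all tested genes with a 3′ UTR, 688 of 1703 lower genes held one (40.4%), as did 164 of 1415 higher genes (11.6%) and 1618 of 9702 genes that were not called (16.7%). The median 3′ UTR was 801 bases in the 6 genes that fell and 463 bases in the other 35, and a longer region has more places for any word. Over all tested genes it was 1288 bases in lower genes, 1221 in higher genes and 990 in genes not called. The part of length in these shares was not tested. Pold1, Cdc6, Prim2 and Rrm1 fell and held none of the 4 words.

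Library totals ranged from 22349142 to 29282494 counts, and the 41 genes took between 0.168% and 0.201% of them. Irf1 stood at 5.64, 5.08 and 6.02 CPM (counts relative to the library's size after TMM scaling, the unit of all levels here) with Irf1 siRNA, against 11.1, 12.6 and 12.2 CPM with control siRNA, which leaves 46.5% (log2 fold change -1.10 ± 0.11 SE, adjusted p 3.0e-06). The 8 chondrocyte markers were all detected and none was called, with a summed level of 87340 to 114474 CPM with Irf1 siRNA and 86537 to 113868 CPM with control siRNA. The 5 fibroblast markers summed to 2643 to 3390 CPM with Irf1 siRNA and 3690 to 4624 CPM with control siRNA, and 1 of the 3 tested, Col1a1, was lower. The 4 macrophage markers summed to 8.88 to 10.02 CPM with Irf1 siRNA and 5.99 to 8.44 CPM with control siRNA, with Adgre1 at 0 in every library and 1 gene, Cd68, tested and higher. The 4 osteoblast markers, none called, summed to 89.3 to 121 CPM with Irf1 siRNA and 128 to 151 CPM with control siRNA, so these ranges did not overlap. The 4 skeletal muscle markers summed to 11.5 to 13.4 CPM with Irf1 siRNA and 12.1 to 12.9 CPM with control siRNA, and 1 of the 2 tested, Des, was higher (log2 fold change 0.43, adjusted p 0.0446). Osteoclast and endothelial markers gave 0 calls in edgeR, and 0 at an unadjusted p below 0.05, with overlapping sums, and no erythroid or neutrophil marker had enough counts to be tested. The part of these markers in the results below was not tested.

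Of all tested genes 22.4% were called, 12.0% as lower and 10.4% as higher. Among the replication and nucleotide genes 14.6% were called, all 6 lower, so the share that was lower is near the background of 12.0% and nearer still to the 14.9% lower among the 9168 tested genes within the same range of mean level. No gene of the 41 was higher in edgeR, in DESeq2 or at an unadjusted p below 0.05. At that unadjusted p 10 of the 41 were lower, against 2594 of all 14683 tested genes. Without Irf1 siRNA replicate 3 the lower calls numbered 3, Gins2, Pold1 and Rrm2. The share of all genes called lower under that exclusion is not given here for comparison. The median log2 fold change of the 41 was -0.11, against 0.0011 for all tested genes, and the 41 values ran between -0.64 and 0.076. Negative values made up 34 of the 41 (82.9%), against 49.8% of all tested genes. The 3 Irf1 siRNA values lay wholly below the 3 control values in 12 genes (29.3%), against 19.5% of all tested genes, and in 0 genes did they lie wholly above. Separation in either direction was found for 38.1% of all tested genes. With 3 libraries against 2, separation was more frequent over all tested genes too; without control replicate 2, 19 of the 41 genes lay wholly below, against 22.8% of all tested genes. Without control replicate 3, 13 of the 41 lay wholly below and 5 wholly above (43.9% together), against 46.9% of all tested genes in either direction.

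**Figure D1:**
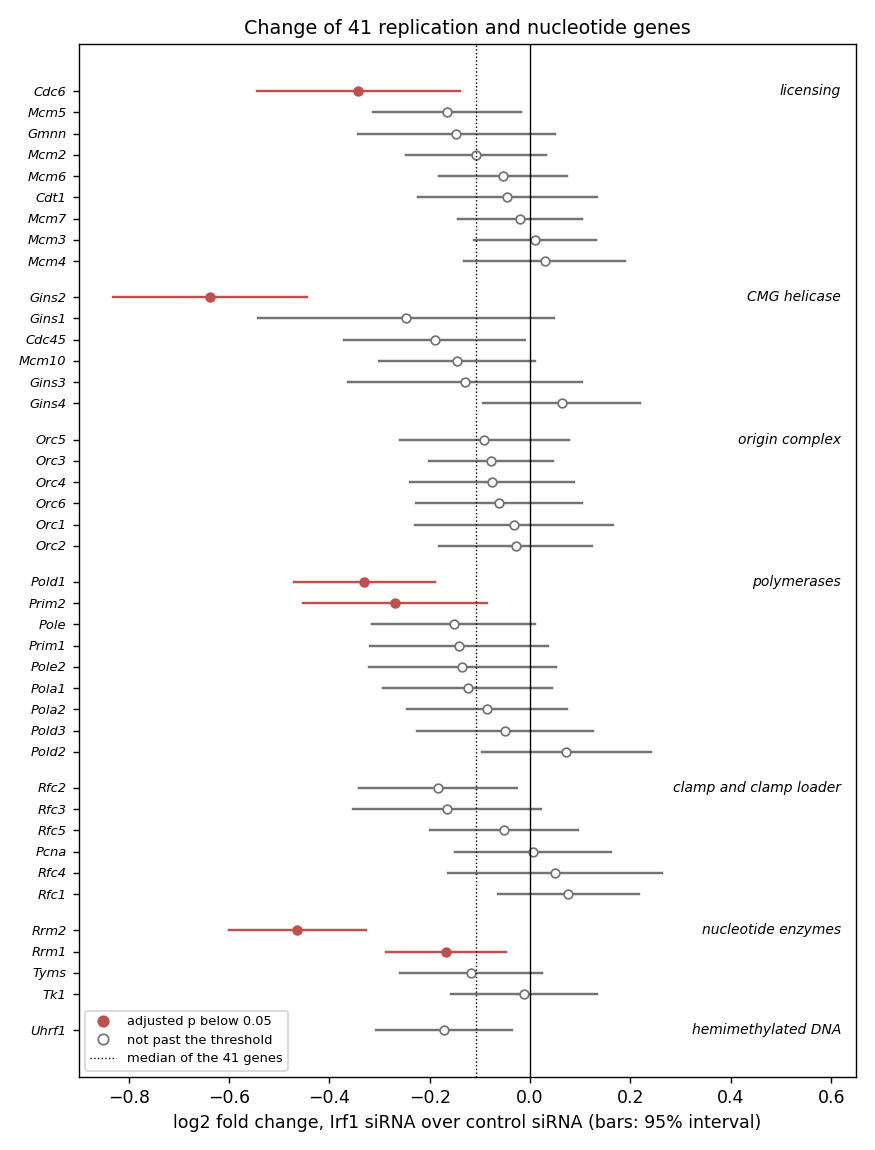
Points give the log2 fold change of each of the 41 genes (x axis, Irf1 siRNA over control siRNA), bars the 95% interval of the fit, and filled red points the genes past the threshold; genes are grouped by role down the page and the dotted line is their median, -0.11. The 6 filled points all lie left of 0, and Gins2 and Rrm2 lie farthest left.

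A value not past the threshold was often a narrow one. Of the 35 genes not called, 29 had a 95% interval that stayed within 1.25-fold in either direction. The other 6, whose intervals reached further, were Gmnn, Cdc45, Gins1, Gins3, Rfc2 and Rfc3. For 4 genes not called, Mcm5, Cdc45, Rfc2 and Uhrf1, the interval excluded no change before adjustment, and the smallest adjusted p among the 35 was 0.0672, for Uhrf1.

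Among the 9 licensing genes 1 fell, and the median log2 fold change was -0.054. Cdc6, the ATPase that brings the MCM rings onto ORC, had 13.8, 14.4 and 12.6 CPM with Irf1 siRNA, against 16.8, 15.6 and 19.3 CPM with control siRNA. The groups did not overlap, and control replicate 3 was the highest library. The mean was 13.6 ± 0.911 CPM with Irf1 siRNA and 17.2 ± 1.89 CPM with control siRNA (SD, n = 3 each), a log2 fold change of -0.34 ± 0.095 (SE) with an adjusted p of 0.0172. The gene did not pass when Irf1 siRNA replicate 3 was left out (adjusted p 0.088), nor when control replicate 3 was (adjusted p 0.0859). Cdt1, which loads the rings together with Cdc6, had a log2 fold change of -0.045 (adjusted p 0.745). Gmnn, which encodes geminin, the inhibitor of Cdt1, had -0.15 (adjusted p 0.282).

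None of the 6 MCM2 to MCM7 genes, which encode the ring itself, was called by edgeR or DESeq2, and 1 of them, Mcm5, had an unadjusted p below 0.05. Mcm6 had 124, 141 and 130.0 CPM with Irf1 siRNA, against 135, 133 and 142 CPM with control siRNA, and the groups overlapped. Its log2 fold change was -0.054 with a 95% interval of -0.18 to 0.073. Mcm5 had 67.7, 70.2 and 73.9 CPM with Irf1 siRNA, against 81.1, 70.9 and 85.6 CPM with control siRNA (log2 fold change -0.17, adjusted p 0.101). All 6 intervals stayed within 1.25-fold, and the 6 log2 fold changes lay between -0.17 and 0.029. Summed over the ring, the level was 519.3 ± 7.07 CPM with Irf1 siRNA and 538.6 ± 30.1 CPM with control siRNA, or 96.4%.

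Among the 6 helicase genes 1 fell, and the median log2 fold change was -0.17. Gins2, a subunit of the GINS complex, had 12.5, 12.3 and 12.8 CPM with Irf1 siRNA, against 18.9, 17.8 and 21.8 CPM with control siRNA. The groups were far apart relative to their spread. The mean was 12.5 ± 0.268 CPM with Irf1 siRNA and 19.5 ± 2.06 CPM with control siRNA (SD, n = 3 each), a log2 fold change of -0.64 ± 0.091 (SE) with an adjusted p of 1.18e-04. Gins2 shares 2758 exonic bases with Gse1, which lies on the opposite strand. Gse1 stood at 30.5, 29.0 and 30.7 CPM with Irf1 siRNA, against 26.7, 23.5 and 23.5 CPM with control siRNA, and was higher (log2 fold change 0.29, adjusted p 0.00991; 0.0527 without Irf1 siRNA replicate 3 and 0.0523 without control replicate 2). The strand setting of the counting is not given in the sources used here, so reads of the pair in the shared bases cannot be told apart.

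The other 3 GINS genes did not pass the test. Gins4 had 25.8, 23.2 and 23.8 CPM with Irf1 siRNA, against 22.4, 23.0 and 24.1 CPM with control siRNA (log2 fold change 0.063, adjusted p 0.592), and the groups overlapped. Gins1 had a log2 fold change of -0.25 with a 95% interval of -0.54 to 0.048, the widest span toward lower values among the genes not called. Gins3 had -0.13 (adjusted p 0.433). Cdc45, the helicase partner of GINS and MCM, had 18.6, 17.1 and 18.6 CPM with Irf1 siRNA, against 19.9, 19.2 and 22.8 CPM with control siRNA; the groups did not overlap but the adjusted p was 0.124. Mcm10, which aids helicase activation, likewise did not overlap (log2 fold change -0.15, adjusted p 0.171).

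Members of one complex can be set against each other within a library, where scaling cancels. The ratio of Gins2 to Gins4, both per kb of exon, was 0.160, 0.174 and 0.177 with Irf1 siRNA, against 0.277, 0.255 and 0.298 with control siRNA, without overlap. Pold1 to Pold2 gave 0.384, 0.442 and 0.393 with Irf1 siRNA, against 0.537, 0.526 and 0.544 with control siRNA, also without overlap. Here the catalytic gene was low relative to its partner in every Irf1 siRNA library. Rrm2 to Rrm1 gave 5.45, 5.31 and 5.27 with Irf1 siRNA, against 6.40, 6.31 and 6.94 with control siRNA, again without overlap. These ratios describe unequal change within a pair of subunit genes. The first gene of each pair was itself called lower in these same libraries, so the ratios are no separate support for its fall. Gins2 also shares exonic bases with Gse1, so its ratio to Gins4 is uncertain to that extent. The ratios of Cdc6 to Cdt1 and of Prim2 to Prim1 overlapped between the groups.

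The 6 genes of ORC, which marks origins, gave 0 calls in edgeR, 0 in DESeq2 and 0 at an unadjusted p below 0.05. All 6 log2 fold changes were negative, between -0.092 and -0.029, and every 95% interval stayed within 1.25-fold. Orc6, the smallest subunit, had 30.6, 34.6 and 32.0 CPM with Irf1 siRNA, against 33.1, 31.2 and 37.1 CPM with control siRNA (adjusted p 0.617). Orc5 had 13.9, 14.3 and 14.0 CPM with Irf1 siRNA, against 15.0, 14.9 and 15.1 CPM with control siRNA. Its groups did not overlap, yet the log2 fold change of -0.092 had an adjusted p of 0.45.

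Among the 9 polymerase genes 2 fell, and the median log2 fold change was -0.14. Pold1, the catalytic subunit of polymerase delta, had 26.6, 25.4 and 25.7 CPM with Irf1 siRNA, against 33.3, 32.3 and 32.0 CPM with control siRNA. Both groups were tight and did not overlap. The mean was 25.9 ± 0.615 CPM with Irf1 siRNA and 32.6 ± 0.681 CPM with control siRNA (SD, n = 3 each), a log2 fold change of -0.33 ± 0.066 (SE) with an adjusted p of 0.00202. Pold2, the accessory subunit, had 27.0, 22.4 and 25.5 CPM with Irf1 siRNA, against 24.2, 24.0 and 23.0 CPM with control siRNA (log2 fold change 0.072, adjusted p 0.563). Pold3, a further accessory subunit, had -0.050 (adjusted p 0.711).

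Prim2, the large subunit of primase, had 15.8, 17.9 and 18.1 CPM with Irf1 siRNA, against 19.5, 20.2 and 22.9 CPM with control siRNA. The groups did not overlap. The log2 fold change was -0.27 ± 0.086 (SE) with an adjusted p of 0.0348, and the call was kept in 5 of 11 alternatives. It did not pass when Irf1 siRNA replicate 1 (adjusted p 0.118) or 3 (adjusted p 0.0607) was left out, nor without control replicate 2 (adjusted p 0.0617) or 3 (adjusted p 0.149). Prim1, the catalytic subunit of primase, had -0.14 (adjusted p 0.247), and its groups overlapped. Pola1 and Pola2 of polymerase alpha had -0.12 and -0.086. The catalytic gene of polymerase epsilon, Pole, had -0.15 and its partner Pole2 -0.14, with adjusted p-values of 0.175 and 0.296.

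None of the 6 clamp and clamp loader genes was called by edgeR or DESeq2, and 1, Rfc2, had an unadjusted p below 0.05. The median log2 fold change was -0.023, with 3 values on each side of 0. Pcna, the clamp that tethers polymerases to DNA, had 71.9, 75.1 and 73.4 CPM with Irf1 siRNA, against 69.6, 66.9 and 83.1 CPM with control siRNA. The groups overlapped, and the log2 fold change was 0.0055 with a 95% interval of -0.15 to 0.16. Rfc1, the large subunit of replication factor C, had the highest log2 fold change of the 41 genes, 0.076 (adjusted p 0.453). Rfc2 had -0.18 (adjusted p 0.0901), Rfc3 -0.17 (0.198 as adjusted p), Rfc4 0.049 and Rfc5 -0.052.

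Of the 4 enzymes of nucleotide supply 2 fell, both subunits of ribonucleotide reductase. Rrm2, the small subunit whose protein rises in S phase, had 158, 166 and 155 CPM with Irf1 siRNA, against 214, 206 and 241 CPM with control siRNA. The highest Irf1 siRNA library lay well below the lowest control library. The mean was 159.8 ± 5.66 CPM with Irf1 siRNA and 220.4 ± 18.5 CPM with control siRNA (SD, n = 3 each), a log2 fold change of -0.46 ± 0.064 (SE) with a 95% interval of -0.60 to -0.33 and an adjusted p of 9.6e-05. Rrm1, the large catalytic subunit, had 115, 124 and 117 CPM with Irf1 siRNA, against 133, 129.9 and 138 CPM with control siRNA, without overlap. Its log2 fold change was -0.17 ± 0.056 (SE) with an adjusted p of 0.044, a call kept in 3 of 11 alternatives. It was lost without any 1 library other than Irf1 siRNA replicate 2, with adjusted p-values of 0.0705 to 0.14.

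Tyms, which makes thymidylate, had 27.8, 28.7 and 29.0 CPM with Irf1 siRNA, against 31.9, 29.7 and 31.2 CPM with control siRNA. The groups did not overlap, but the log2 fold change of -0.12 had an adjusted p of 0.229. Tk1, the thymidine kinase of dividing cells, had 39.6, 40.8 and 40.9 CPM with Irf1 siRNA, against 39.6, 38.3 and 44.5 CPM with control siRNA (log2 fold change -0.012, adjusted p 0.924). Summed over the 4 enzymes, the level was 340.5, 360.0 and 342.4 CPM with Irf1 siRNA, against 417.5, 404.1 and 455.1 CPM with control siRNA, or 81.7%, the lowest of the role groups with several genes. Rrm2 alone makes up most of that gap.

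Uhrf1, which reads hemimethylated DNA behind the fork and recruits the maintenance methyltransferase, had 57.2, 58.1 and 59.8 CPM with Irf1 siRNA, against 61.3, 64.6 and 71.3 CPM with control siRNA. The groups did not overlap, and the adjusted p of 0.0672 missed the threshold (log2 fold change -0.17, 95% interval -0.31 to -0.035).

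**Figure D2:**
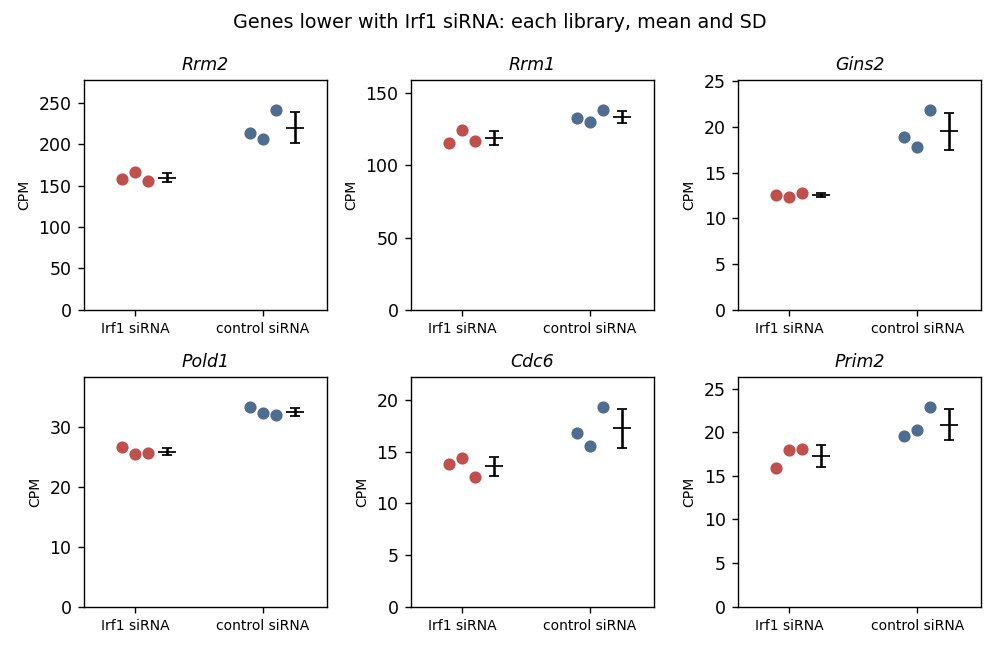
Each point is a library's level in CPM (y axis, starting at 0) for the 6 genes that were lower, with Irf1 siRNA left of control siRNA; the bars beside the points are the mean and SD of 3 libraries. In each panel the 3 Irf1 siRNA points lie below the 3 control points, with the widest separation for Gins2.

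Levels can be compared between genes only per length, here as CPM per kb of annotated exon, which understates genes with long rarely used exons. Rrm2 was the highest of the 41 at 57.7 ± 2.04 CPM per kb with Irf1 siRNA and 79.5 ± 6.68 CPM per kb with control siRNA (SD, n = 3 each). Pcna followed at 30.6 CPM per kb with Irf1 siRNA and 30.5 with control siRNA, and Mcm6 at 28.2 with Irf1 siRNA and 29.3 with control siRNA; this pair did not differ beyond their spread. Next, Mcm3, Mcm5, Mcm4 and Mcm7 lay between 18.6 and 21.5 CPM per kb with control siRNA, and neighbours among them did not differ beyond their spread. Mcm2 had the lowest level per length of the ring, 11.9 CPM per kb with Irf1 siRNA and 12.8 with control siRNA. This rank rests on its annotated exon of 6.956 kb, the longest of the ring. Before division by length, Mcm2 stood at 89.3 CPM with control siRNA, above Mcm3, Mcm4, Mcm5 and Mcm7.

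Subunits of 1 complex stood at unequal levels per length. Gins4 had 17.97 CPM per kb with Irf1 siRNA and 17.2 with control siRNA, while Gins2 had 3.06 with Irf1 siRNA and 4.76 with control siRNA. Of the 4.097 kb of Gins2 exon, 2758 bases are shared with Gse1 and the strand setting is not given. The level of Gins2 per length is therefore uncertain. Orc6 was the highest ORC gene at 13.1 CPM per kb with Irf1 siRNA and 13.7 with control siRNA, and Orc5 the lowest at 2.28 with Irf1 siRNA and 2.43 with control siRNA. These ranks depend on the annotated exon, 6.166 kb for Orc5 and 2.469 kb for Orc6. In CPM with control siRNA, Orc5 at 15.0 was above Orc1 at 12.0. Among the polymerases Pold2 was highest, at 13.2 CPM per kb with Irf1 siRNA and 12.5 with control siRNA. Cdc6 was the lowest licensing gene, at 2.60 CPM per kb with Irf1 siRNA and 3.30 with control siRNA.

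**Figure D3:**
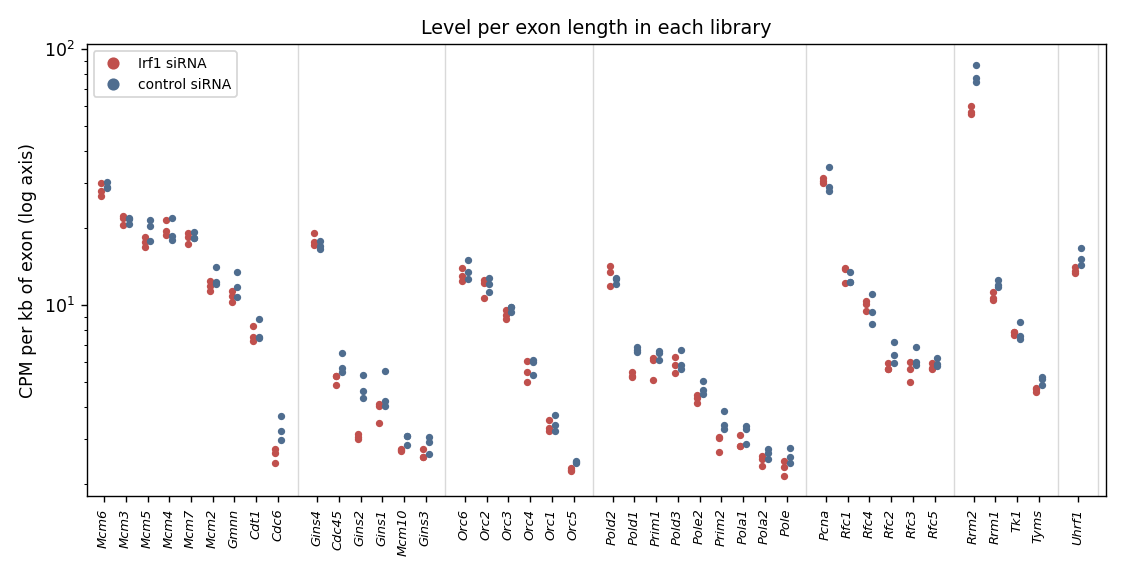
Points give CPM per kb of exon (log y axis) in each library for the 41 genes, grouped by role and ordered within a role by the control mean, with Irf1 siRNA to the left of control siRNA at each gene. Rrm2 stands highest, and within each role that holds several genes the levels spread over several-fold.

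Control replicate 3 stood apart for these genes. As the median deviation from the control mean over the 41 genes, in log2 units, the Irf1 siRNA libraries stood at -0.14, -0.098 and -0.085 and the control libraries at -0.025, -0.071 and 0.090. Control replicate 3 was below the control mean in 5 of the 41 genes. The other control libraries were below it in 30 and 35 genes, and the Irf1 siRNA libraries in 34, 31 and 33. The control mean includes control replicate 3, so where that library is high the other control libraries tend to lie below the mean. The counts of the 3 control libraries are therefore not independent of each other. Summed over the 41 genes, the level was 1692, 1749 and 1727 CPM with Irf1 siRNA, against 1848, 1796 and 1990 CPM with control siRNA, or 91.7%. Without control replicate 3 the median log2 fold change was -0.080, and Gins2, Pold1 and Rrm2 were still called while Cdc6, Prim2 and Rrm1 were not, and Rfc2 was called as lower.

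**Figure D4:**
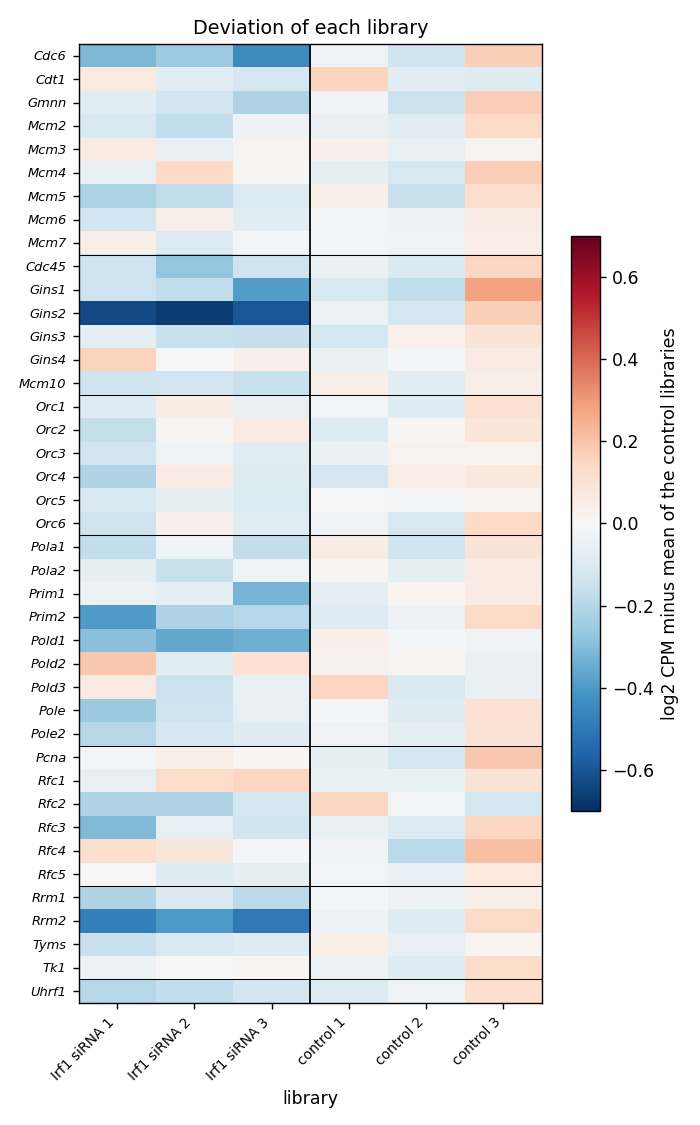
Colours give log2 CPM minus the mean of the control libraries for each of the 41 genes (rows, grouped by role) in each library (columns, Irf1 siRNA left of control siRNA). The third control column is mostly above that mean, and the rows of Gins2 and Rrm2 are the deepest blue in the Irf1 siRNA columns.

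Beyond the 41, 67 further genes of replication and nucleotide supply were listed by role, of which 65 were tested. Lower calls numbered 6 (12.0% of all tested genes were lower) and higher calls 5 (10.4% of all tested genes), with a median log2 fold change of -0.048. Among these further genes the lower calls numbered 3 without Irf1 siRNA replicate 3, an exclusion for which the lower share of all genes is not given here. Origin firing factors (7 genes), fork protection factors (7), Okazaki fragment maturation enzymes (6) and alternative clamp loaders (4) gave 0 calls in edgeR; at an unadjusted p below 0.05 they gave 2, 1, 0 and 1. Top2a, the topoisomerase that untangles finished DNA, had 189.6, 215 and 209 CPM with Irf1 siRNA, against 259, 249 and 283 CPM with control siRNA (log2 fold change -0.37, adjusted p 8.05e-04). Its groups did not overlap.

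Smaller falls were seen in 3 further genes, each without overlap. Rpa1, the large subunit of the single-strand binding protein RPA, had 86.1, 87.7 and 84.7 CPM with Irf1 siRNA, against 96.8, 96.7 and 107 CPM with control siRNA (log2 fold change -0.22, adjusted p 0.0146). Its call was lost without Irf1 siRNA replicate 3 (0.0660 as adjusted p) and without control replicate 3 (0.0717). Pole3, a small subunit of polymerase epsilon, had 55.6, 55.8 and 53.2 CPM with Irf1 siRNA, against 62.6, 64.8 and 61.2 CPM with control siRNA (log2 fold change -0.20, adjusted p 0.0214; 0.0963, 0.0563 and 0.0930 without Irf1 siRNA replicate 3, control replicate 1 and control replicate 2). Dnmt1, the maintenance methyltransferase that works with Uhrf1, had 112, 116 and 118 CPM with Irf1 siRNA, against 139, 121 and 135 CPM with control siRNA (log2 fold change -0.19, adjusted p 0.0369), and its call was lost without any 1 library other than control replicate 2.

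The largest falls of that list were in nucleotide supply. Rrm2b, the alternative small subunit of ribonucleotide reductase that p53 induces, had 7.36, 9.66 and 8.58 CPM with Irf1 siRNA, against 13.6, 16.0 and 15.0 CPM with control siRNA (log2 fold change -0.79, adjusted p 8.51e-05). All 3 genes for subunits of this enzyme, Rrm1, Rrm2 and Rrm2b, were thus lower in the main test. The Rrm1 call was kept in only 3 of 11 alternatives. Dut, the dUTPase that keeps uracil out of DNA, had 49.1, 50.4 and 45.6 CPM with Irf1 siRNA, against 66.2, 60.0 and 65.5 CPM with control siRNA (log2 fold change -0.40, adjusted p 3.21e-04). Rbbp4, a histone-binding subunit of the chromatin assembly factor, had 223, 226 and 211 CPM with Irf1 siRNA, against 189, 186 and 195 CPM with control siRNA, and was higher (log2 fold change 0.21, adjusted p 0.0116; 0.0588 without control replicate 2). Also higher were the histone chaperone Asf1a (log2 fold change 0.27, adjusted p 0.0429) and, in nucleotide metabolism, Dctd (0.29, 0.0124 as adjusted p), Shmt1 (0.43, 0.00406) and Nme1 (0.42, 0.00136). The groups overlapped for Asf1a, whose call was lost without any 1 library other than Irf1 siRNA replicate 3 and control replicate 2, and Dctd did not pass when Irf1 siRNA replicate 3 was left out (adjusted p 0.0809). Asf1a, Dctd, Shmt1 and Nme1 were named after their values were seen.

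Markers of division moved in the same libraries. Mki67, which encodes the proliferation marker Ki-67, had 53.2, 57.7 and 55.9 CPM with Irf1 siRNA, against 72.6, 71.6 and 74.7 CPM with control siRNA (log2 fold change -0.39, adjusted p 1.55e-04). Of 28 genes of mitosis, a list added after results were known, 24 were lower (12.0% of all tested genes were lower) and 0 higher, with a median log2 fold change of -0.26; without control replicate 3 the count was 15. At an unadjusted p below 0.05, 27 were lower and 0 higher, against 2594 lower of all 14683 tested genes. DESeq2 called 23 lower and 0 higher. The shares of all genes called lower in DESeq2 and without control replicate 3 are not given here for comparison. Cdk1, the kinase that starts mitosis, stood at 95.3 ± 1.81 CPM with Irf1 siRNA and 116.3 ± 5.88 CPM with control siRNA (SD, n = 3 each; log2 fold change -0.29). The difference between the mitosis list and the 41 genes was not tested. In bulk RNA, fewer cells in a phase of the cell cycle and less RNA per cell cannot be told apart.

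**Figure D5:**
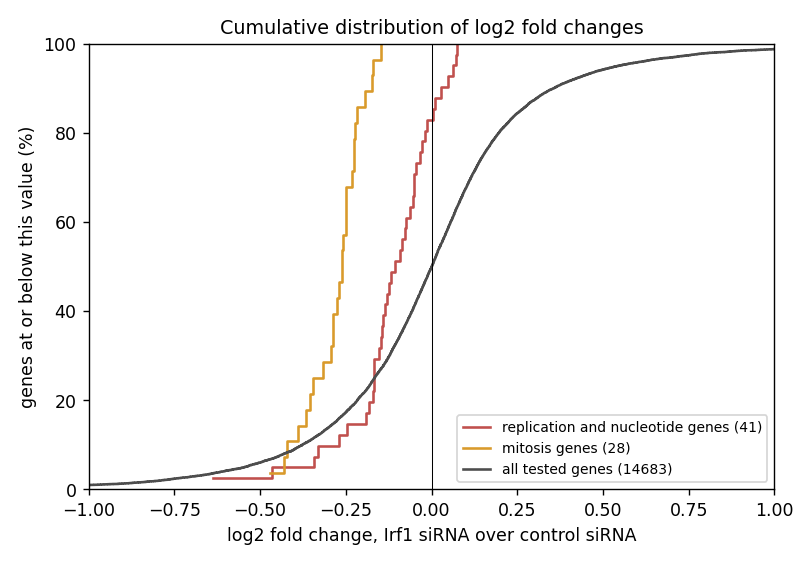
Lines give the share of genes (y axis, percent) at or below each log2 fold change (x axis, Irf1 siRNA over control siRNA) for the 41 replication and nucleotide genes, the 28 mitosis genes and all 14683 tested genes. At the median, the 41-gene line is at -0.11, the mitosis line at -0.26 and the line of all genes at 0.0011.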

How the data were processed

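Gene-level RNA-seq counts were analysed from 3 Irf1 siRNA and 3 control siRNA libraries of mouse chondrocytes. The authors deposited raw whole-number counts per gene, 1 table per library. Trimmomatic 0.39, FastQC and STAR are named with the build GRCm39 (mm39), per the submitters' processing notes. How reads were counted, with which strand setting and which annotation, is not given in the sources used here. Exons of 14 of the 41 genes overlap another annotated gene, 12 of them on the opposite strand, and Pcna and Tyms have pseudogenes, so these counts are uncertain to that extent.

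Counts were tested in R 4.3.3 with edgeR 4.0.16 (filterByExpr, TMM, robust glmQLFit, glmQLFTest, two-sided) on all 6 libraries with the treatment as the only term, and p-values were adjusted by Benjamini and Hochberg over 14683 genes, with a threshold of 0.05. The test was first run on simulated counts with known changes. Alternatives were RLE or upper-quartile factors, no low-count filter, DESeq2 1.42.0, the replicate number as a block and each library left out. Intervals cover 95%. No library is a copy of another: within a group, pairs had a chi-square of 5.76 to 16.6 per degree of freedom across genes. Exon lengths and 3′ UTRs came from GENCODE M21 by gene identifier, and promoters from RefSeq by symbol.

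Members and lists were chosen with earlier results of these data known. Values per library are given for called members (up to 4 per role), the member with the highest level per length in each role, and up to 2 called genes per further list. They are also given for Mcm5, Cdc45, Orc5, Tyms and Tk1, which lie outside that rule. Other named members serve to account for all 41.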

Additional observations from a re-analysis of the deposited data

How the results depend on the processing

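Of the 6 lower replication genes, Gins2, Pold1 and Rrm2 were called under all 11 alternatives. Lower calls numbered 6 with RLE factors, 4 with upper-quartile factors, 4 in DESeq2 and 9 with no low-count filter (26800 genes tested), which added Mcm5, Rfc2 and Uhrf1. Higher calls numbered 0 under each of the 11. The share of all genes called lower under these alternatives is not given here, so the counts are not set against that background. Uhrf1, Mcm5 and Rfc2 were also called without control replicate 1, 2 and 3, in that order. With each library left out in turn, lower calls ranged between 3 and 6, the median log2 fold change between -0.12 and -0.080, and genes whose groups did not overlap, in either direction, between 15 and 19 (36.6% to 46.3%), against 44.7% to 49.3% of all tested genes under the same exclusions. The same exclusions gave 959 to 1398 higher calls over all genes, 3 to 7 lower calls among the further replication genes and 15 to 26 among the mitosis genes, whose list and alternatives were chosen after seeing the data. Lower calls over all genes under these exclusions are not given here. Whether the lower counts of the lists follow that background was not tested. The 3 calls among the 41 came without Irf1 siRNA replicate 3, which also gave the 959 and the 3 among further genes; the 19 came without control replicate 2 (980 higher calls over all genes), and the 15 mitosis calls without control replicate 3. The cause was not tested, beyond the smaller number of libraries.

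Prim2 had an adjusted p of 0.0517 with upper-quartile factors and 0.0529 in DESeq2, and Rrm1 0.082 and 0.0511. Signs changed for 11 genes, none called. With upper-quartile factors Mcm7 had a log2 fold change of 0.0054 and Tk1 0.014, and with no filter Mcm3 had -0.0060 and Pcna -0.0091. With libraries left out, log2 fold changes spanned -0.10 to 0.036 for Cdt1, -0.019 to 0.042 for Mcm3, -0.028 to 0.12 for Mcm4, -0.053 to 0.018 for Mcm7, -0.078 to 0.023 for Orc1, -0.076 to 0.034 for Orc2, -0.12 to 0.0096 for Orc6, -0.11 to 0.027 for Pold3, -0.057 to 0.11 for Pcna, -0.040 to 0.16 for Rfc4 and -0.057 to 0.055 for Tk1. Among further genes, Dnmt1 lost its call in 6 of 11 alternatives and Asf1a in 5.

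With the replicate number as a block, 5 of the 41 genes were lower and Rrm1 was lost (adjusted p 0.0512). Deviations of same-numbered libraries correlated at 0.26, -0.073 and 0.064 across genes. Irf1 siRNA replicates 1 and 3 matched best with the control library of the same number, and replicate 2 with control replicate 3. These correlations cannot decide whether same-numbered libraries were paired, which the labels used here do not give. Genes with few counts, such as Gins1 and Gins3, have the widest intervals, and 3 libraries a group limit the precision.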
